A study of Mus musculus with 6 samples.

Results

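The interleukin-1 (IL-1) and interleukin-18 (IL-18) family, with its receptors, was examined in RENCA cells, an established mouse renal adenocarcinoma line. Its 10 genes (Il1a, Il1b, Il1rn, Il18, Il33, Il1r1, Il1rap, Il1rl1, Il18r1 and Il18bp) were chosen by gene symbol, and all 10 were found among the 78298 genes of the count table. The cells carried either a lentivirus with the mouse Aqp1 coding sequence under the ubiquitin C promoter (oe-AQP1, n = 3) or the same vector without an insert (oe-NC, n = 3). All cells of both groups had been transduced and then selected in puromycin (2 μg/mL, 14 days). The sample titles give a time of 2 weeks without naming its start. No untransduced RENCA cells are among the groups, and the labels do not say whether the samples of a group go back to 1 transduction or to several. The series calls the 3 samples of a group biological replicates, and the sample titles name no batch. P-values therefore measure the spread between these samples, which may be technical in part.

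IL-1α (Il1a) and IL-1β (Il1b) bind the receptor IL-1R1 (Il1r1), which then recruits the accessory protein IL-1RAP (Il1rap) and signals through the adaptor MyD88 to NF-κB. IL-18 (Il18) works in the same way through IL-18R1 (Il18r1) with its own accessory chain, and IL-33 (Il33) through ST2 (Il1rl1) with IL-1RAP. The family is held in check by secreted inhibitors, among them the receptor antagonist encoded by Il1rn, which occupies IL-1R1 without signaling, and IL-18 binding protein (Il18bp), a soluble decoy that captures IL-18 and is known as an interferon-inducible gene.

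In oe-AQP1 cells the decoy Il18bp was 7.51-fold higher than in oe-NC cells and the accessory chain Il1rap was 1.62-fold higher, while the primary receptor Il1r1 was 1.32-fold lower. The IL-18 receptor Il18r1 was 2.03-fold lower at no more than 21 counts in any sample, a call that several other settings did not give. The agonists Il1a, Il1b and Il33 had at most 8 counts in any sample of either group. Il18, Il1rn and the IL-33 receptor Il1rl1 did not pass the test. Of the 10 members, 7 passed the low-count filter of the test (edgeR's filterByExpr) and 3, Il1a, Il1b and Il33, did not. With limma-voom at an FDR (Benjamini-Hochberg adjusted p) under 0.05, 2 members were higher and 2 lower, against 16% of all 15522 genes tested higher, 16.6% lower and 32.5% in either direction. Il18bp and Il18r1 also passed the fold threshold of the study for a differentially expressed gene (DEG), an absolute log2 fold change (log2FC, oe-AQP1 against oe-NC) above 1, as did 5.23% of the genes tested, 4.39% upward and 0.844% downward. The median log2FC of the 7 members tested was 0.40, beside 0.00 over all genes tested. Il18r1 reached the filter's level of 0.497 CPM (counts per 1000000 counts of the library) only in the oe-NC samples. Il18 reached it in 3 oe-AQP1 samples but in only 1 oe-NC sample. Both thus passed through the group in which they were higher, and the counts and the median of the members are a description.

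The promoters of the 4 called members are shown because these are the genes on which the comparison turns. Each stretch runs from 250 bases before to 30 bases after a RefSeq transcription start on build GRCm38.p6, 5′ to 3′ on the strand of the gene. They lie at chr7:102018203-102018482 (reverse strand) for Il18bp, at chr16:26581455-26581734 for Il1rap, at chr1:40266336-40266615 for Il1r1 and at chr1:40465756-40466035 for Il18r1, the last 3 on the forward strand. Capitals mark matches to the 4 letter patterns named after the sequences. For Il1r1 and Il18r1, which have 2 and 3 listed starts, the only window of the gene with a match is shown.
Il18bp promoter: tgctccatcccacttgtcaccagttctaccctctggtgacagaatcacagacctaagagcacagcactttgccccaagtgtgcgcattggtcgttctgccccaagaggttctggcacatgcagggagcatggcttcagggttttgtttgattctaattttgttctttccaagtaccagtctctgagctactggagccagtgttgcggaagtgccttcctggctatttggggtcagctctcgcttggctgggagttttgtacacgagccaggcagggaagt
Il1rap promoter: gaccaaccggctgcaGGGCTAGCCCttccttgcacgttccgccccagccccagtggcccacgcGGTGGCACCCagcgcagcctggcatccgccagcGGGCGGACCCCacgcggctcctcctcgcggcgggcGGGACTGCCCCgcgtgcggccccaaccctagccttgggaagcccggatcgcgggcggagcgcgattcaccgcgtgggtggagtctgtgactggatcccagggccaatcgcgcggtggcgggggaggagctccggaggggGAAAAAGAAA
Il1r1 promoter: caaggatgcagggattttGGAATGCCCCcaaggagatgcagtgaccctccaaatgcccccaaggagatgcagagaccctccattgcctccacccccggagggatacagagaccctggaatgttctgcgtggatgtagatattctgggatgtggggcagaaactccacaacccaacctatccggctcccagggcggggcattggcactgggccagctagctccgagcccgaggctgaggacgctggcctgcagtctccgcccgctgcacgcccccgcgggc
Il18r1 promoter: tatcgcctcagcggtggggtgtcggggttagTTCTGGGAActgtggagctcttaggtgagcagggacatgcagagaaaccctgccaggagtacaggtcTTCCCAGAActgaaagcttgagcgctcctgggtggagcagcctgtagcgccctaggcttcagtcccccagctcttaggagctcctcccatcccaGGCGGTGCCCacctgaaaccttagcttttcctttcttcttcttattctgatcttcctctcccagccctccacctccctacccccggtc

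The 300-base windows that RefSeq starts give for all 10 members, 17 windows in all, were searched on both strands for 4 patterns. These were GAAA followed by GAAA after 2 bases of any kind (the core of interferon response elements), TTCNNNGAA (a STAT site), GGG followed by CC after 5 bases of any kind (an NF-κB-like site) and TGANTCA (an AP-1 site). The interferon core was found in 1 member, Il1rap, as GAAAAAGAAA at bases 21 to 30 after the start, and in 3.44% of the 32851 promoters searched. The STAT pattern was found in 1 member, Il18r1, as TTCTGGGAA and TTCCCAGAA at -219 to -211 and -152 to -144 relative to the start, and in 8.3% of all promoters. The NF-κB-like pattern occurred in windows of 4 members (Il1rap, Il18r1, Il1r1 and Il1rn), but also in 50.8% of all promoters, and its 6 positions in Il1rap include overlapping ones. The AP-1 pattern occurred in Il1a and Il1rn and in 7.81% of all promoters. The Il18bp window held none of the 4 patterns, which says only that these letters are not in these bases. A match is a description of the letters, and no binding was measured.

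Each sample held between 18385714.02 and 21920898.67 expected counts, so that 20 counts lie near 1 CPM. The labels were checked with Aqp1, which had 7713, 8545 and 7838 counts in oe-AQP1 and 41, 25 and 45 in oe-NC. Within oe-AQP1 the samples differed by a chi-square of 1.71 to 2.04 per gene, where counting error by itself would give values near 1. The same measure was 2 between oe-NC samples 2 and 3 but 9.81 and 11.4 between sample 1 and these, so oe-NC sample 1 stood apart, and values without it are given for the members and the pathway counts. Of the kidney epithelium markers, Pax8, Krt8 and Krt18 were well measured, while Epcam and Umod had no count in any sample and Slc34a1 had 1 in all. The 12 T and NK cell markers had at most 3 counts in any sample, and the highest of them by CPM was Cd3e.

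Il18bp (ENSMUSG00000070427) is a reverse-strand gene on chromosome 7 (GRCm39, 101638490 to 101668206). It had 461, 454 and 452 counts in oe-AQP1 and 61, 48 and 63 in oe-NC. These are 23.3, 20.6 and 22.0 CPM (22.0 ± 1.33, SD, n = 3) against 3.11, 2.63 and 2.96 CPM (2.90 ± 0.246, SD, n = 3). All 3 oe-AQP1 samples thus lay above all 3 oe-NC samples, with a wide gap between the groups. The log2FC was 2.91 (SE 0.13, 95% interval 2.62 to 3.19, FDR = 5.82e-08 by limma-voom), and Il18bp ranked 137 from the highest log2FC among the 15522 genes tested. It was 2.96 without oe-NC sample 1 and between 2.84 and 2.96 with each sample left out in turn. Il18bp was also among the interferon-stimulated genes that the study set aside before listing its DEGs, with the stated aim of limiting artifacts of transfection. Its exons share 446 bases with exons of Numa1, a spindle protein gene on the opposite strand, and the strand setting of the counting is not given in the sources used here. Numa1 had 3863, 4401 and 4025 counts in oe-AQP1 and 4233, 3153 and 3780 in oe-NC, and its log2FC was 0.07 (SE 0.07, FDR = 0.49 by limma-voom). The ubiquitin ligase gene Rnf121, which lies 138 bases from Il18bp, had a log2FC of 0.13 (FDR = 0.23 by limma-voom). Lrrc51, the nearest tested gene on the other side at 55.3 kb, rose with a log2FC of 0.85 (FDR = 7.62e-04 by limma-voom).

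Il18, the cytokine that this decoy binds, lies on chromosome 9 from 50466081 to 50493633, on the forward strand. It had 20, 26 and 11 counts in oe-AQP1 and 6, 8 and 12 in oe-NC. The groups overlapped, since oe-AQP1 sample 3 (0.535 CPM) lay below oe-NC sample 3 (0.563 CPM). Mean levels were 0.910 ± 0.336 CPM in oe-AQP1 and 0.435 ± 0.129 CPM in oe-NC cells (SD, n = 3). The log2FC of 0.98 (SE 0.40, 95% interval 0.10 to 1.86) missed the threshold at an FDR of 0.0840 by limma-voom. Over the fits that each left out 1 sample it ran from 0.75 to 1.31, and the FDR was 0.0261 without oe-AQP1 sample 3. Without oe-NC sample 1 it was 0.76 (FDR = 0.191 by limma-voom).

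The balance of decoy to cytokine was taken as the ratio of Il18bp to Il18 counts within each sample, with 0.5 count added to each, which no scaling between samples can change. The ratio was 22.5, 17.2 and 39.3 in the oe-AQP1 samples and 9.46, 5.71 and 5.08 in the oe-NC samples. Its mean was 3.81-fold higher in oe-AQP1 cells (log2 difference 1.93, or 2.20 without oe-NC sample 1), and the groups did not overlap. An exact two-sided permutation test over the 6 samples gave p = 0.1, the smallest that 3 samples against 3 allow. Il18 is the lower of the pair, with 6 to 26 counts per sample. The ratio compares transcript counts, not the amounts of either protein.

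**Figure D1:**
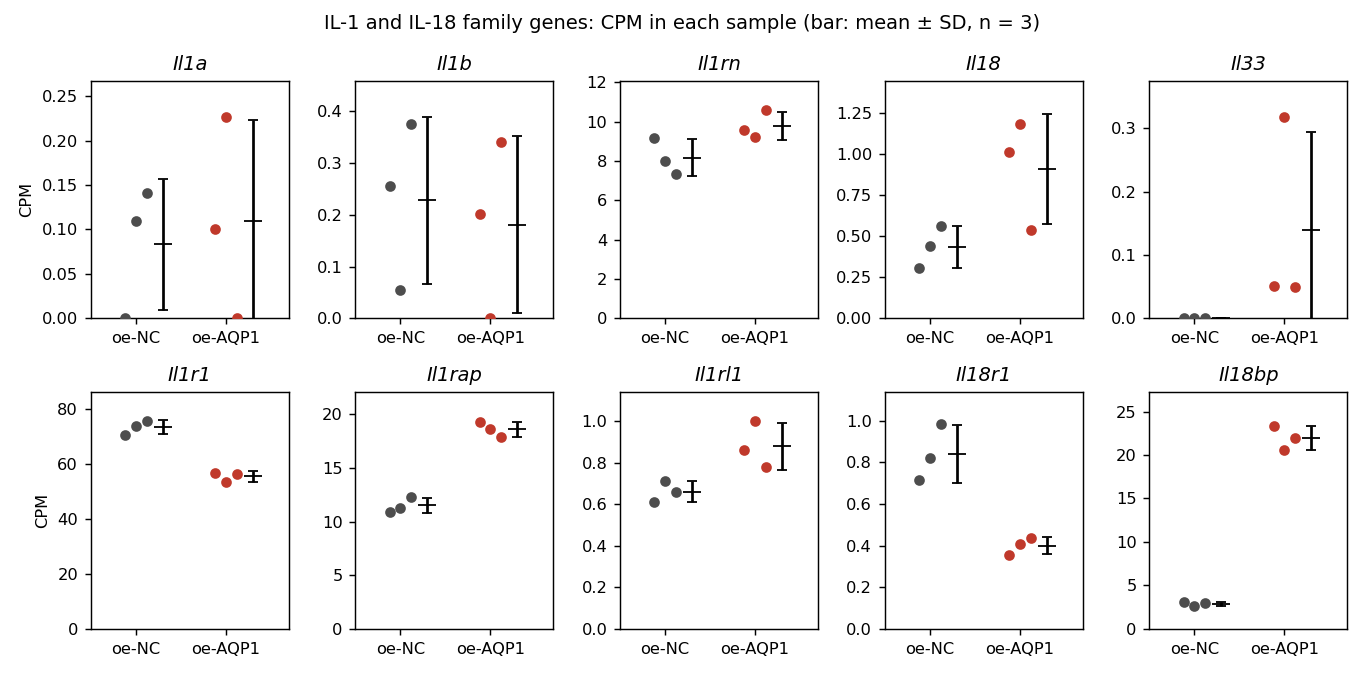
CPM (counts per 1000000 after TMM scaling, linear axes from 0, each gene on its own scale) of the 10 genes in every sample of oe-NC (grey) and oe-AQP1 (red), with bars for the mean ± SD of 3 samples. Among the called genes Il18bp, Il1rap, Il1r1 and Il18r1 the groups do not overlap, with Il18bp at 20.6 to 23.3 CPM against 2.63 to 3.11 CPM, while Il1a, Il1b and Il33 stay below 0.4 CPM. The groups do not overlap for Il1rn, Il1rl1 and Il33 either, which were not called. The same holds for 23.5% of all genes tested upward and 23.8% downward.

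The agonists of the IL-1 receptor were close to the limit of detection. Il1a (chromosome 2, 129140291 to 129152098, reverse strand) had 2, 5 and 0 counts in oe-AQP1 and 0, 2 and 3 in oe-NC. Il1b (chromosome 2, 129206490 to 129213059, reverse strand) had 4, 0 and 7 counts in oe-AQP1 and 5, 1 and 8 in oe-NC. The groups overlapped for both, and no difference was detectable at this depth. Both also lie opposite long non-coding RNA genes with which they share exon bases, Gm14023 for Il1a and Il1bos for Il1b. Il33 (chromosome 19, 29902483 to 29938933, forward strand), a nuclear cytokine released from damaged cells, had 1, 7 and 1 counts in oe-AQP1 and none in oe-NC. A count of 0 allows up to 3 counts, or 0.140 to 0.163 CPM in the oe-NC samples, and the mean of the oe-AQP1 samples was itself 3.0 counts, so no fold is given. In a fit without the low-count filter Il33 had an FDR of 0.0354 by limma-voom on these 9 counts in all, 7 of them from oe-AQP1 sample 2.

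Il1rn, the receptor antagonist, lies on chromosome 2 from 24226865 to 24241506, on the forward strand. It had 189, 203 and 218 counts in oe-AQP1 and 180, 146 and 156 in oe-NC, or 9.80 ± 0.716 and 8.16 ± 0.938 CPM (SD, n = 3). In CPM the lowest oe-AQP1 sample (9.23) lay just above the highest oe-NC sample (9.17), which was sample 1. The log2FC was 0.27 (SE 0.11, 95% interval 0.03 to 0.51, FDR = 0.0844 by limma-voom), short of the threshold. Without oe-NC sample 1 it was 0.36 with an FDR of 0.0164, and with sample quality weights 0.32 with an FDR of 0.0175, both by limma-voom. The ratio of Il1rn to its competitors Il1a and Il1b together, with 0.5 count added to each side, was 29.2, 37.0 and 29.1 in the oe-AQP1 samples and 32.8, 41.9 and 13.6 in the oe-NC samples. The log2 ratio differed between the groups by 0.25 (exact two-sided permutation p = 0.9), and the difference was -0.23 without oe-NC sample 3.

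Il1r1, the signaling receptor of IL-1, lies on chromosome 1 from 40264174 to 40356417, on the forward strand. It had 1126, 1175 and 1163 counts in oe-AQP1 and 1388, 1354 and 1614 in oe-NC. In CPM these were 56.9, 53.4 and 56.6 (55.6 ± 1.93, SD, n = 3) against 70.7, 74.1 and 75.7 (73.5 ± 2.55, SD, n = 3). Every oe-AQP1 sample lay below every oe-NC sample. The log2FC was -0.40 (SE 0.05, 95% interval -0.51 to -0.29, FDR = 1.52e-04 by limma-voom), and it was -0.43 without oe-NC sample 1. The nearest tested gene upstream, the kinase gene Map4k4 at 197.0 kb, had a log2FC of -0.30 (FDR = 0.00116 by limma-voom).

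Il1rap, the accessory chain shared by the IL-1 and IL-33 receptors, moved the other way. It lies on chromosome 16 from 26400350 to 26548880, on the forward strand, and had 382, 408 and 369 counts in oe-AQP1 and 214, 206 and 262 in oe-NC. In CPM these were 19.3, 18.6 and 17.9 (18.6 ± 0.688, SD, n = 3) against 10.9, 11.3 and 12.3 (11.5 ± 0.719, SD, n = 3), with no overlap. The log2FC was 0.69 (SE 0.08, 95% interval 0.52 to 0.86, FDR = 8.40e-05 by limma-voom) and 0.65 without oe-NC sample 1. Its count was not a whole number in 4 of the 6 samples, as happens where a counter divides reads between genes, and unrounded counts kept the call. The antisense gene Gm20319, which shares 1425 exon bases with it, had 7, 9 and 14 counts in oe-AQP1 and 3, 4 and 5 in oe-NC, and the part of antisense reads in the Il1rap counts was not tested. The nearest tested gene on one side, Cldn1 at 209.8 kb, had a log2FC of 0.37 (FDR = 0.0783 by limma-voom). On the other side Ostn, at 576.5 kb, was lower, with a log2FC of -0.38 (FDR = 9.46e-04 by limma-voom). Il1rap and Il1rl1 are each known to give membrane-bound and soluble forms, which counts per gene do not tell apart.

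The ratio of Il1rap to Il1r1 counts, chosen after the values of both had been seen, was 0.340, 0.348 and 0.318 in the oe-AQP1 samples and 0.154, 0.152 and 0.163 in the oe-NC samples. It was 2.14-fold higher in oe-AQP1 cells. Il1rap was higher and Il1r1 lower in every oe-AQP1 sample, so the groups could not overlap in this ratio. Its exact two-sided permutation p of 0.1, again the smallest possible, was therefore fixed in advance and adds nothing to the 2 single results. For each of the 4 called members taken alone, the same exact permutation test also gave p = 0.1. The exact permutation test gave p = 0.1 as well for Il1rn, Il1rl1 and Il33, which were not called. That value comes with any lack of overlap, which 23.5% of all genes tested showed upward and 23.8% downward. It therefore does not set the called members apart.

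**Figure D2:**
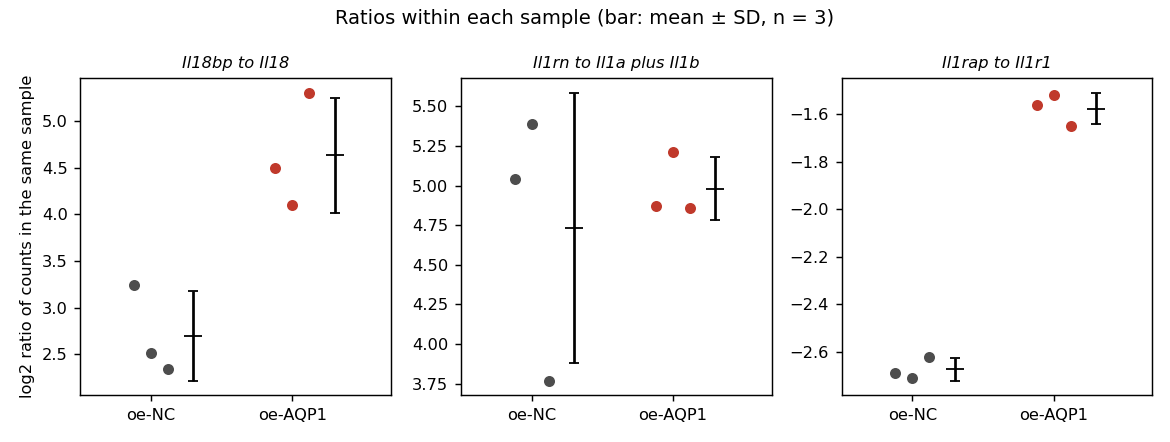
log2 ratio of counts within each sample for Il18bp to Il18, Il1rn to the sum of Il1a and Il1b, and Il1rap to Il1r1, with points for samples and bars for the mean ± SD of 3 samples (axes do not start at 0). Il18bp to Il18 and Il1rap to Il1r1 do not overlap between oe-NC (grey) and oe-AQP1 (red), with mean differences of 1.93 and 1.10, and the ratio of Il1rn overlaps, with oe-NC sample 3 lowest at 3.77. For Il1rap to Il1r1 the lack of overlap was fixed in advance, since each gene alone already separated the groups, in opposite directions.

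Il18r1, the ligand-binding receptor of IL-18, lies on chromosome 1 from 40504712 to 40540014, on the forward strand. It had 7, 9 and 9 counts in oe-AQP1 and 14, 15 and 21 in oe-NC, or 0.400 ± 0.0426 and 0.840 ± 0.137 CPM (SD, n = 3). The groups did not overlap. The log2FC was -1.02 (SE 0.30, 95% interval -1.68 to -0.36, FDR = 0.0237 by limma-voom), and only just exceeded the fold threshold. The call was lost with DESeq2 (FDR = 0.136), without the low-count filter (FDR = 0.0658 by limma-voom), and without any one of oe-AQP1 samples 1, 2 and 3 or oe-NC samples 2 and 3, with limma-voom FDRs from 0.0541 to 0.0885. It held without oe-NC sample 1 (log2FC -1.13, FDR = 0.0266 by limma-voom). The direction was the same under all 15 alternatives that tested the gene, with log2FC between -1.13 and -0.90.

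Il1rl1, the IL-33 receptor, ends 137 bases before Il18r1 begins, at 40468730 to 40504575 on the same strand. It had 17, 22 and 16 counts in oe-AQP1 and 12, 13 and 14 in oe-NC, or 0.879 ± 0.112 and 0.660 ± 0.050 CPM (SD, n = 3). The groups did not overlap in CPM, but the log2FC of 0.40 (SE 0.26, 95% interval -0.18 to 0.98) had an FDR of 0.271 by limma-voom, and without oe-NC sample 1 it was 0.35 (FDR = 0.482 by limma-voom). Changes up to a log2FC of 0.98 therefore lie within its interval. Whether reads near the shared border were assigned to the right neighbour was not tested.

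**Figure D3:**
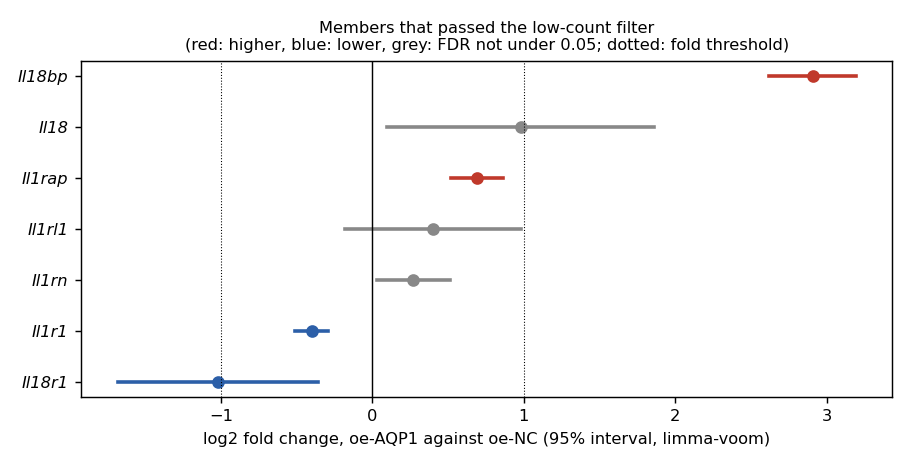
log2FC of oe-AQP1 against oe-NC (x axis) for the 7 members that passed the low-count filter, with 95% intervals from limma-voom as bars. Il18bp at 2.91 and Il1rap at 0.69 are higher (red), Il1r1 at -0.40 and Il18r1 at -1.02 lower (blue), and the grey genes did not pass an FDR of 0.05.

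Over the 7 members tested, 4 were higher and 2 lower in every oe-AQP1 sample than in every oe-NC sample, beside 23.5% and 23.8% of all genes tested. Of the higher, Il1rn and Il1rl1 had no call. Of the lower, Il18r1 reached the filter's level only in oe-NC samples, so it could be tested only by being high there. The counts are a description.

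Levels were compared between genes per length, as TPM, the counts per kilobase of exon length scaled to 1000000 in each sample. In oe-NC cells Il1r1 was highest at 41.8 ± 0.400 TPM (SD, n = 3), followed by Il1rn at 5.73 ± 0.813, Il1rap at 2.91 ± 0.126 and Il18bp at 2.26 ± 0.236 TPM. No neighbours among these 4 overlapped. Il18r1 (0.659 TPM) and Il18 (0.558 TPM) overlapped each other, as did Il1rl1 (0.371 TPM) and Il1b (0.340 TPM) and the lowest genes, Il1b, Il1a (0.0913 TPM) and Il33 (no count). In oe-AQP1 cells Il1r1 was still highest at 32.9 ± 1.09 TPM (SD, n = 3), but Il18bp came next at 17.8 ± 1.02 TPM, ahead of Il1rn at 7.13 ± 0.539 and Il1rap at 4.90 ± 0.160 TPM. Il18 followed at 1.22 ± 0.448 TPM and Il1rl1 at 0.514 ± 0.0657 TPM, without overlap between neighbours. Il18r1 (0.327 TPM), Il1b (0.280 TPM), Il1a (0.126 TPM) and Il33 (0.0908 TPM) overlapped from each to the next. With the longest annotated transcript as the length, the first 4 positions were the same in both groups.

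**Figure D4:**
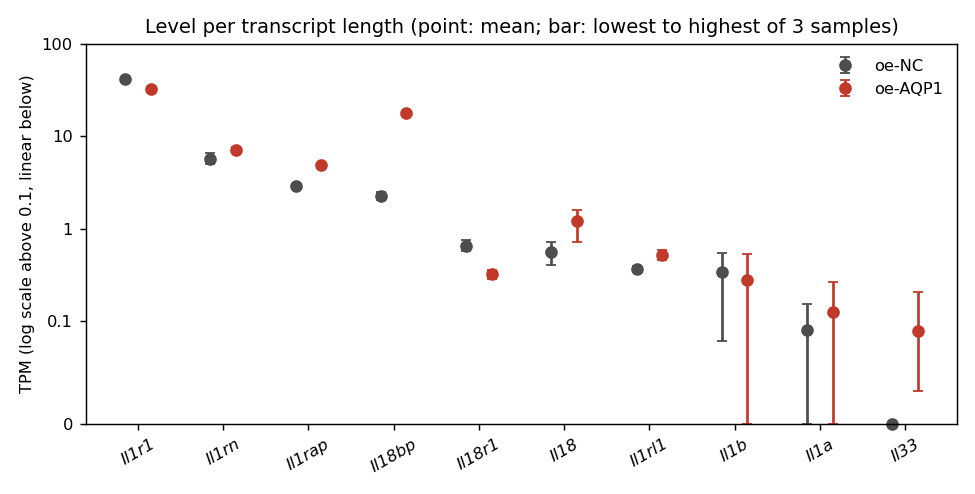
TPM of the 10 genes in oe-NC (grey) and oe-AQP1 (red), ordered by the oe-NC mean, with points for means and bars from the lowest to the highest of 3 samples (log scale above 0.1 TPM, linear below). Il18bp moves from 2.26 to 17.8 TPM, while Il1r1 stays the highest of the family in both groups.

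For each called member, the genes whose log2 CPM ran most like it over the 6 samples were listed as a description, since 6 samples in 2 groups make any strongly differing gene look alike. Between 1332 and 1856 of the 15266 genes compared had a Pearson's r above 0.9 with each of these members. Closest to Il18bp were Abi3bp, A530040E14Rik and the class I histocompatibility gene H2-K1, and closest to Il1rap were Gm56555, Rab12 and Asxl2. Closest to Il1r1 were Gm10222, Steap1 and Tlcd3a, and closest to Il18r1 were Zc3hav1l, Cstf2 and Pttg1ip, with r of at least 0.996 for every gene named.

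The rest of the pathway was read from 4 lists with 76 genes, of which 51 passed the low-count filter. Of these, 23 were higher and 8 lower, and 11 of the higher and 1 of the lower passed the fold threshold. Of all genes tested, 16% were higher and 16.6% lower, with 4.39% and 0.844% past the fold threshold, and the counts of each list are to be read beside these shares. Without oe-NC sample 1 the pathway counts were 26 higher and 10 lower. The median log2FC of the 51 was 0.16. The lists differed in their counts, and the increases past the fold threshold lay mostly among the response genes. These increases include Il6, Ccl7 and Saa3, which reached the filter's level of 0.497 CPM only in oe-AQP1 samples. They could be tested only by being high in that group, so the counts and the median over the 4 lists are a description.

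Among 11 other ligands and receptors of the family, Il36a, Il36b, Il36rn, Il1f10, Il1rapl1 and Il1rapl2 had no count in any sample, and only Sigirr passed the filter. Sigirr, an inhibitory receptor of the family, had 679, 734 and 686 counts in oe-AQP1 and 820, 725 and 858 in oe-NC. It was lower, with a log2FC of -0.27 (SE 0.05, FDR = 0.00254 by limma-voom). Il18rap, the accessory chain of the IL-18 receptor, picked out after its values had been seen, had 4, 5 and 3 counts against 11, 6 and 9, too few to pass the filter, and the decoy receptor Il1r2 had at most 1 count in any sample.

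Among 17 genes of maturation and release, 11 passed the filter, 5 of which were higher and 1 lower. Casp4, whose product senses cytosolic lipopolysaccharide and cleaves gasdermin D, had 2405, 2701 and 2562 counts in oe-AQP1 and 925, 877 and 1115 in oe-NC. Its log2FC was 1.32 (SE 0.05, FDR = 1.44e-08 by limma-voom), the only one on this list past the fold threshold. Casp1, which encodes the protease that cleaves the precursors of IL-1β and IL-18, and Gsdmd, which encodes the pore protein gasdermin D, were picked out after their values had been seen. Casp1 had a log2FC of 0.87 (FDR = 7.16e-06) and Gsdmd one of 0.89 (FDR = 1.82e-07), both by limma-voom. The inflammasome sensor Nlrp3 had at most 3 counts in any sample, and Nlrp1a and Mefv had none.

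Among 26 receptor-proximal signaling genes, 23 passed the filter, 6 of which were higher and 4 lower. Nfkbia, the NF-κB inhibitor that is itself a target of NF-κB, had 1579, 1775 and 1610 counts against 757, 599 and 802 and a log2FC of 1.13 (SE 0.06, FDR = 3.28e-07 by limma-voom). Myd88, which encodes the adaptor through which the IL-1, IL-18 and IL-33 receptors signal and was likewise picked out after its value had been seen, had a log2FC of 0.81 (FDR = 1.00e-06 by limma-voom). The 4 lower genes, named after their values had been seen, were the kinase genes Irak1 (log2FC -0.24), Irak4 (log2FC -0.18), Map3k7 (log2FC -0.19) and Map3k3 (log2FC -0.29).

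Among 22 genes known to respond to IL-1, which also respond to TNF and other NF-κB signals, 16 passed the filter, 12 of which were higher and 2 lower. Their median log2FC was 1.16. Il6, Ccl7 and Saa3 reached the filter's level of 0.497 CPM only in oe-AQP1 samples, so that they could pass only by being high in that group, and the count and median of this list are a description. The other 13 genes included 9 higher and 2 lower, with a median log2FC of 0.93. Among them Ccl20 reached that level in every oe-AQP1 sample but not in oe-NC sample 2 (0.328 CPM), so these values are a description as well. Ccl2, a monocyte chemoattractant, had 12364, 13559 and 12577 counts in oe-AQP1 and 1886, 1900 and 2271 in oe-NC (log2FC 2.60, SE 0.04, FDR = 3.03e-11 by limma-voom). Il6 had 43, 43 and 41 counts against 1, 1 and 0, a ratio of 60.9 with a 95% interval of 16.5 to 508 that covers counting error only. Its fitted log2FC was 5.29 (SE 0.45, FDR = 1.21e-05 by limma-voom), a value that depends on the prior count because oe-NC holds 2 counts in all. The neutrophil chemoattractants Cxcl1 (log2FC 2.24) and Cxcl2 (log2FC 1.57), the growth factor gene Csf2 (log2FC 1.29), the chemokine gene Ccl20 (log2FC 1.63), the acute-phase gene Saa3 (log2FC 2.50) and the adhesion gene Icam1 (log2FC 1.02) were also higher past the fold threshold. Ccl7 (27, 14 and 17 counts against 5, 8 and 1, log2FC 2.17, FDR = 0.0202 by limma-voom) lost its call without oe-AQP1 sample 1, oe-AQP1 sample 3 or oe-NC sample 3, with FDRs of 0.0615, 0.0501 and 0.0692. Nos2, the inducible nitric oxide synthase gene, went down, with 96, 98 and 112 counts against 264, 241 and 285 (log2FC -1.44, SE 0.10, FDR = 2.62e-06 by limma-voom). Lcn2, picked out after its value had been seen, was lower as well (log2FC -0.73), and Ptgs2 had no count in any sample.

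**Figure D5:**
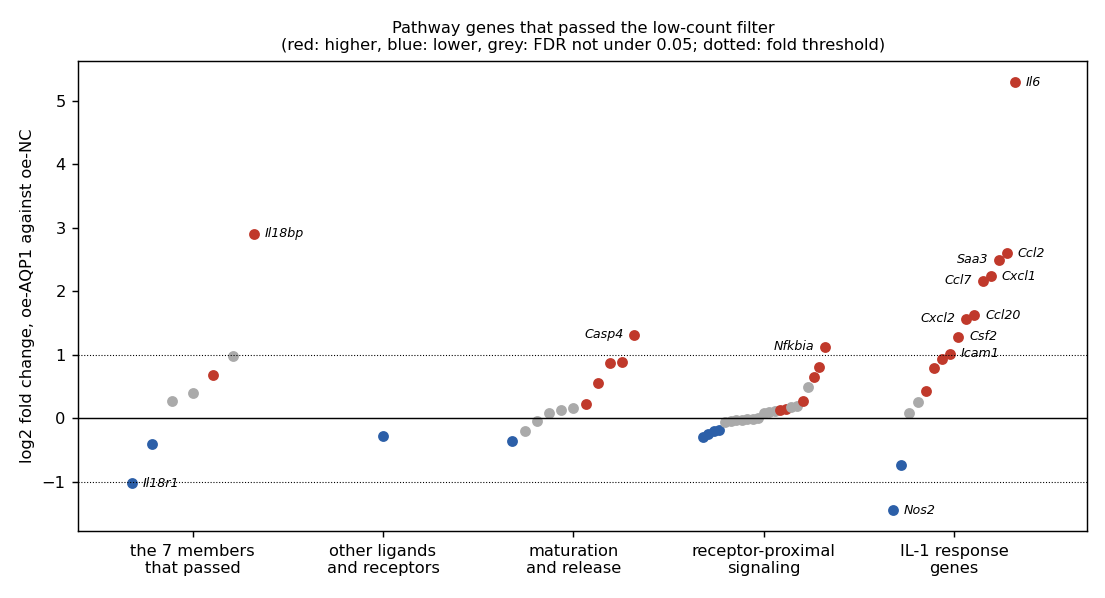
log2FC of oe-AQP1 against oe-NC (y axis) for the 7 members and the 51 genes of 4 pathway lists that passed the low-count filter, 1 point per gene, with genes past the fold threshold named. The response genes hold 9 of the 11 higher genes past the threshold and the single lower one, Nos2 at -1.44, and the fitted value of Il6 rests on 2 counts in oe-NC. Among these 9 are Il6, Ccl7 and Saa3, which could pass the filter only by being high in oe-AQP1.

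Members of this family are used by immune cells too, so marker genes were read beside them, and in bulk samples fewer cells of a type and less RNA per cell cannot be told apart. Calls in the marker lists are to be read beside the 16% of all genes tested that were higher and the 16.6% that were lower. Of 14 macrophage and monocyte markers, 5 passed the filter, none was called higher and 2 were called lower. Adgre1 and Tyrobp had no count, Ptprc had at most 3 counts in any sample, and Cd68 was the highest by CPM. Csf1r, the receptor gene for the macrophage growth factor CSF-1, and the lysozyme gene Lyz2 were the lower markers, picked out after their values had been seen. Csf1r had 56, 74 and 76 counts in oe-AQP1 and 173, 183 and 202 in oe-NC, with a log2FC of -1.51 (SE 0.13, FDR = 1.31e-05 by limma-voom) that passed the fold threshold. The log2FC of Lyz2 was -0.52. Other markers of the list, also named after their values had been seen, went the other way. Cd68, Aif1 and Mrc1 were higher in CPM in every oe-AQP1 sample than in every oe-NC sample. Cd68 had no call (log2FC 0.15, FDR = 0.0764 by limma-voom). Aif1 (12, 15 and 9 counts against 5, 8 and 4) and Mrc1 (5, 2 and 2 against 0, 0 and 0) did not pass the filter. The summed level of the list was 64.5 to 67.6 CPM in the oe-AQP1 samples and 72.7 to 77.3 CPM in the oe-NC samples. Of 8 mast cell markers, which bear on Il1rl1, Kit, Cpa3, Mcpt4, Tpsb2 and Fcer1a had no count. The summed level of the list was 23.0 to 24.5 against 5.02 to 7.03 CPM. It came mostly from Hdc, a histidine decarboxylase gene, with a log2FC of 2.07 (FDR = 5.08e-07 by limma-voom). Ms4a2, picked out after its values had been seen, was lower, with 3, 3 and 0 counts against 13, 8 and 10, too few to pass the filter. The T and NK cell markers summed to 0 to 0.136 CPM against 0.153 to 0.274 CPM. Of the 8 endothelial markers, led by Egfl7, 3 passed the filter and none was called, and of the 8 fibroblast markers, led by Pdgfrb, 3 passed, 1 higher and 1 lower. Of the 12 kidney epithelium markers, led by Krt8, 9 passed, of which 5 were lower and none higher, and their summed level was 851 to 884 CPM against 1040 to 1150 CPM. The part of these shifts in the results for the members was not tested.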

How the data were processed

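Total RNA of 3 oe-AQP1 and 3 oe-NC RENCA samples had been sequenced from Illumina TruSeq libraries as paired-end reads. The authors deposited estimated counts per gene, unscaled and partly fractional, with 2 columns of group means and functional annotation that were not used here. The study's methods give GRCm39 as the genome, whereas the submitters' processing notes name GRCm38 and mm10 together with fastp, HISAT2, featureCounts and Subread. Versions and strand settings are not given in the sources used here. Gene positions and lengths were taken from GENCODE M39 on GRCm39, in which 78168 of the 78298 gene identifiers were found, and promoters from RefSeq on GRCm38.p6, in which all 10 members were found.

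Counts were rounded to whole numbers, filtered with filterByExpr and scaled by TMM (factors 0.993 to 1.006). The groups were compared over all 15522 genes kept with limma-voom (limma 3.58.1, edgeR 4.0.16, R 4.3.3), at a Benjamini-Hochberg FDR under 0.05 and, for DEGs, an absolute log2FC above 1, which follows the study's methods. Single values were compared by exact permutation over samples (scipy 1.17.1). The fitting procedure was tested on simulated data. Samples were grouped by their labels. The main fit did not pair samples by replicate number. Other settings tried were DESeq2 1.42.0, the quasi-likelihood test of edgeR, sample quality weights, 3 other scalings, 2 other filters, unrounded counts, a replicate block and each sample left out in turn.

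The members and lists were chosen with earlier results of these data known. Named were all members, every gene of the 4 pathway lists past the fold threshold, or else the highest and lowest of a list. The 3 genes most like each called member and the highest marker of each marker list were also named. Of the genes overlapping or next to a member, only some were named. Beside these stand genes with few or no counts and genes stated as picked out after their values had been seen. At 18385714.02 to 21920898.67 counts per sample, intervals on counts cover counting error only.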

Additional observations from a re-analysis of the deposited data

How the results depend on the processing

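Il18bp, Il1rap and Il1r1 kept their direction and their call under all 16 alternatives, with log2FC of 2.84 to 2.96, 0.65 to 0.74 and -0.43 to -0.37. The number of lower members fell from 2 to 1 (Il1r1) with DESeq2, without the low-count filter and under a filter of 10 counts in each sample, and was 1 to 2 when 1 sample was left out. That filter left Il18r1 untested. The number of members past the fold threshold was 1 (Il18bp) with DESeq2 and under the filter of 10 counts, and 1 to 2 when 1 sample was left out. Where it was 2, the gene beside Il18bp was Il18 without oe-AQP1 sample 3, Il33 without the low-count filter and Il18r1 otherwise. The number of higher members was 2 or 3 throughout, and the third was Il1rn without oe-NC sample 1 and with sample quality weights, Il18 without oe-AQP1 sample 3 and Il33 without the low-count filter. The difference in the log2 ratio of Il1rn to Il1a plus Il1b ran from -0.23 to 0.58 when 1 sample was left out, and reversed to -0.23 without oe-NC sample 3. That of Il18bp to Il18 ran from 1.60 to 2.20. The cause of these shifts was not tested beyond the samples and filters named.

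Samples with the same replicate number did not deviate together in log2 CPM over all genes tested (r = 0.01, 0 and -0.07). Whether they shared a step of preparation was not tested. With the replicate block, 2 members were higher and 2 lower, Il18r1 had a log2FC of -1.03 (FDR = 0.0406 by limma-voom), 23 pathway genes were higher and 9 lower, and the differences in the 2 log2 ratios were 1.93 and 0.25. The block changed no call among the members. Depth limits Il1a, Il1b and Il33, and leaves Il18, Il18r1 and Il1rl1 at 6 to 26 counts.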
